A study of Homo sapiens with 2 samples.

Results

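The genes described here code for the chains of 3 protein families: the collagens and laminins, which build the extracellular matrix, and the integrins, the cell surface receptors that bind it. They were taken from the deposited table by symbol, as protein-coding genes whose symbols begin with COL, a number and A, with LAMA, LAMB or LAMC and a digit, or with ITGA or ITGB and a digit or chain letter. The rule took 86 of the 34237 genes with a matched transcript. Of these, 44 are collagen chains, 12 laminin chains and 26 integrin chains. The other 4 share only the start of the symbol: ITGB1BP1 and ITGB3BP code for proteins that bind integrin tails or centromeres, and ITGB1BP2 and ITGBL1 are not receptor chains either.

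The cells were HepG2, an established line from a human liver tumour, into which a Dox-on cassette for SAMD4B had been placed. SAMD4B is a human relative of the fly RNA-binding protein Smaug, and doxycycline (Dox) switches the cassette on. The groups were cells given 1 µg/ml Dox for 48 h and cells cultured without Dox, and both carried the cassette and grew in EMEM with serum. Each group has 1 library of polyadenylated RNA, so every difference below is between these 2 libraries, there is no spread between replicates, and no p-value is given. An effect of Dox itself cannot be told apart from an effect of SAMD4B, since cells given Dox without the cassette were not analysed here, and in bulk RNA fewer cells of a type and less RNA per cell cannot be told apart.

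An integrin is a pair of an alpha and a beta chain in the plasma membrane. The pair decides the ligand: some bind collagens, some laminins, and some the RGD sequence of fibronectin and vitronectin. A laminin is a cross-shaped trimer of an alpha, a beta and a gamma chain and forms the sheet on which a basement membrane is built. Collagens are trimers of long helical chains that form fibrils, networks or molecules attached to fibrils. In healthy liver most fibrillar collagen comes from stellate cells, while hepatocytes carry integrins and little basement membrane.

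SAMD4B was at 261 TPM with Dox and 47.5 TPM without Dox, the direction the labels give. TPM, the unit of the deposited values, is an abundance corrected for transcript length and scaled to the same total in each library. Depth was estimated from the steps between low values, on matched transcripts of 600 nt or more only. It was 23629109 fragments with Dox and 18123414 without Dox. Shorter and unmatched transcripts are not in these totals. The hepatocyte markers fixed for this work were all detected, from 64.5 to 12140 TPM with Dox and from 81.8 to 13406 TPM without Dox. Of these 9 markers 8 were lower with Dox, against 47.0% of the 11582 genes compared below. None was lower by 1.5-fold, against 3.90% of those genes. The markers summed to 22404 TPM with Dox and 24866 TPM without Dox.

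Of the 86 genes, 27 had a mean TPM of at least 1 over the 2 libraries and were compared: 10 integrin chains, 5 laminin chains, 10 collagen chains, ITGB1BP1 and ITGB3BP. Integrin chains were mostly higher with Dox (9 of 10), laminin chains were slightly higher (5 of 5), and collagen chains went both ways (4 higher and 6 lower). Among all 11582 genes compared 53.0% were higher with Dox by any amount and 47.0% were lower. A difference of 1.5-fold on the scale log2(TPM + 1) was reached upwards by ITGAV and ITGA2, which is 2 of 27 against 5.32% of all genes compared. It was reached downwards by COL26A1, COL5A2 and ITGAL, which is 3 of 27 against 3.90% of all genes. A difference of 2-fold was reached downwards by ITGAL, against 0.967% of all genes, and upwards by no member, against 1.62%. ITGAL was compared only through its level without Dox, 0.29 TPM with Dox against 2.35 TPM without Dox, and most of that level lay on transcripts of 575 and 585 nt. The median log2 fold change, with Dox over without Dox, was 0.39 for integrin chains, 0.20 for laminin chains and -0.08 for collagen chains, against 0.02 for all genes compared.

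**Figure D1:**
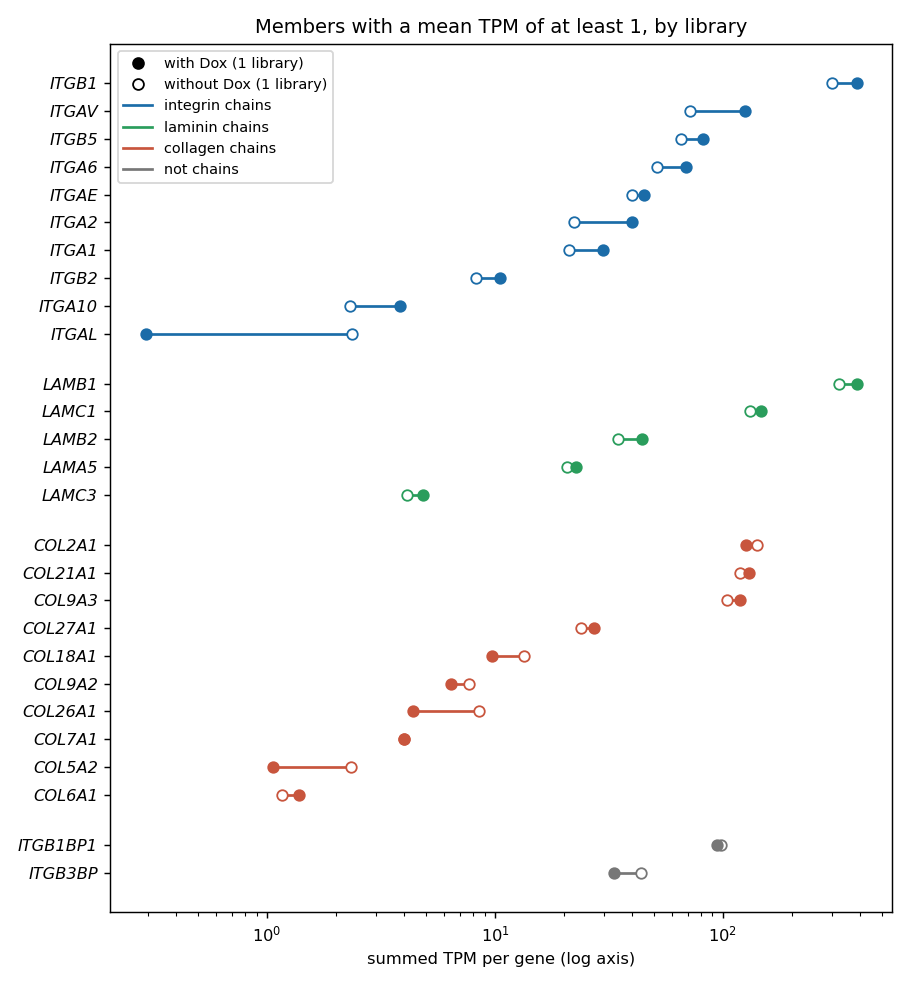
Summed TPM per gene (log axis) of the 27 compared genes, filled for the library with Dox and open for the library without Dox, grouped by family. ITGAV and ITGA2 are separated furthest among the integrin chains that are higher with Dox, and ITGAL, COL26A1 and COL5A2 lie lower with Dox.

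**Figure D2:**
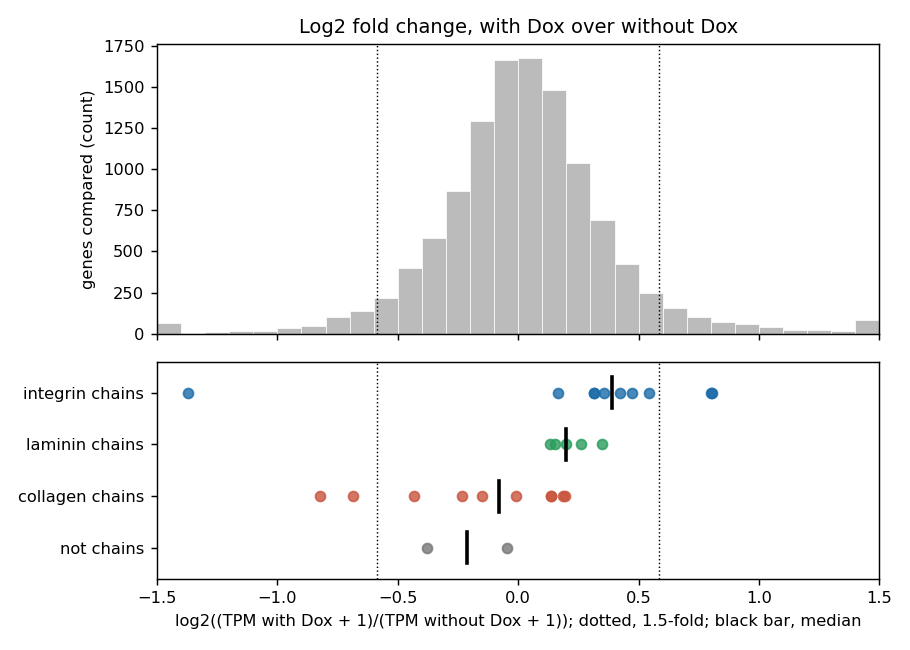
Above, the count of genes by log2 fold change (0.1 wide bins, with values beyond 1.5 in either direction placed in the end bins) for the 11582 genes compared. Below, each of the 27 genes by family with the family median as a black bar; the integrin median is at 0.39, the laminin median at 0.20 and the collagen median at -0.08.

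For some of these genes 1 listed start each is shown here, from 250 bases before to 50 bases after the RefSeq start (GRCh38.p14). The letters read 5′ to 3′ on the strand of the gene. ITGB1 has at least 1 other listed start, which is not shown. ITGAV and ITGA2 are shown because they are the chains that passed 1.5-fold upwards, ITGB1 because it is the most abundant integrin chain, and COL26A1 because its full coding transcripts were lower. Capitals mark GGGCGG, the box bound by SP and KLF factors, and GGAATG, the core bound by TEAD factors, on either strand.
ITGAV (chr2:186589806-186590105, plus strand): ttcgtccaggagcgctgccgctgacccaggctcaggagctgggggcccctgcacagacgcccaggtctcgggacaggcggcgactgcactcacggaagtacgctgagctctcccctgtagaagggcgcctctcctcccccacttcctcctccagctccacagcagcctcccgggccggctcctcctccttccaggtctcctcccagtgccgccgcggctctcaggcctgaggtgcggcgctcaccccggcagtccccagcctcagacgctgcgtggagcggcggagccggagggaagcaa
ITGA2 (chr5:52989102-52989401, plus strand): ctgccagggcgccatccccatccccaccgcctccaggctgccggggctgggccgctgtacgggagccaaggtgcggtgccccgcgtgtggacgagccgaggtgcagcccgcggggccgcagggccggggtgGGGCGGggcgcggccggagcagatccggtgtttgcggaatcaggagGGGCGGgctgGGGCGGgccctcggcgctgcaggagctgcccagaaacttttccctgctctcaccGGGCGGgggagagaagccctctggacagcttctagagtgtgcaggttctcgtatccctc
ITGB1 (chr10:32958181-32958480, minus strand): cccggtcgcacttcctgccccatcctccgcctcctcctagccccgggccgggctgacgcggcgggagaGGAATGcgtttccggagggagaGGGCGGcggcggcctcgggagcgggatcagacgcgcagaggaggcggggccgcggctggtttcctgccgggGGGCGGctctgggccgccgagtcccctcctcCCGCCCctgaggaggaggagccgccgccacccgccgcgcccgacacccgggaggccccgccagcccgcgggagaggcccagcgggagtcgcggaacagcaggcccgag
COL26A1 (chr7:101362625-101362924, plus strand): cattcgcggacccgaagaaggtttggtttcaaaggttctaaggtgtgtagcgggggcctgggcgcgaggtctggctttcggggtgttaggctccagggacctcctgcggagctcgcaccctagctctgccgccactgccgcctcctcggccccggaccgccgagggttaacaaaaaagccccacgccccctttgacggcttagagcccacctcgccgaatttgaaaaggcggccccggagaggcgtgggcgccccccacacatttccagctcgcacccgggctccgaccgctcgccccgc

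Promoters were listed for 20 of the 27 genes, 29 windows in all because some genes have several starts. GGGCGG was in 18 of the 29 windows, against 45.0% of all 35116 windows listed. GGAATG was in 2 of 29, at ITGB1 and ITGA10, against 14.0% of all windows. TGANTCA, the core bound by AP-1 factors, was in 0 of 29, against 7.71% of all windows, and the TATA box TATAAA was in 4 of 29, against 11.5%. The printed ITGAV and COL26A1 windows hold none of the 4 motifs, the ITGA2 window holds 4 GGGCGG boxes, and the ITGB1 window holds 3 beside its GGAATG. Such a match describes letters in a window and does not locate a bound factor.

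ITGAV (ENSG00000138448, chromosome 2, 186590065 to 186680901, GRCh38) codes for the alpha V chain, which binds RGD ligands and pairs with several beta chains, among them those of ITGB1 and ITGB5. Its summed TPM was 126 with Dox and 71.6 without Dox, a log2 fold change of 0.80. Its coding transcripts of 7030 and 6903 nt were both higher: ENST00000261023 was at 112 TPM with Dox and 61.3 TPM without Dox, and ENST00000374907 was at 11.9 TPM with Dox and 6.99 TPM without Dox. In estimated fragments on its coding transcripts, 15461 with Dox and 6735 without Dox, the ratio relative to depth was 1.76, with a 95% counting interval of 1.71 to 1.81. This interval covers counting error only, as do all those below. Fragments were estimated only for matched transcripts of 600 nt or more, here and below, whereas summed TPM includes shorter ones.

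ITGA2 (ENSG00000164171, chromosome 5, 52989326 to 53094779) codes for the alpha 2 chain, which with the beta 1 chain forms a collagen receptor. It was at 39.7 TPM with Dox and 22.3 TPM without Dox, a log2 fold change of 0.81. Nearly all of this lay in the coding transcript ENST00000296585, at 38.5 TPM with Dox and 21.3 TPM without Dox (fragment ratio 1.76, interval 1.68 to 1.85). The other collagen-binding alpha chains were lower in level. ITGA1 was at 29.7 TPM with Dox and 21.1 TPM without Dox, but 79.7% and 79.3% of that was on ENST00000513737, a processed transcript of 601 nt. Its coding transcript of 10757 nt was at 5.20 TPM with Dox and 3.50 TPM without Dox (fragment ratio 1.44, interval 1.30 to 1.61). ITGA10 was at 3.82 TPM with Dox and 2.31 TPM without Dox, and the difference lay in ENST00000539363, at 1.61 TPM with Dox and listed at 0 without Dox. Its other coding transcript ENST00000369304 was at 1.40 TPM with Dox and 1.59 TPM without Dox.

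ITGA6 codes for the alpha 6 chain, a laminin receptor chain. It was at 68.9 TPM with Dox and 51.2 TPM without Dox, a log2 fold change of 0.42. Its coding transcripts did not move alike. ENST00000264107 was at 28.0 TPM with Dox and 16.5 TPM without Dox, a fragment ratio of 1.65 (interval 1.54 to 1.76). ENST00000409080 was at 33.4 TPM with Dox and 29.4 TPM without Dox, a fragment ratio of 1.10 (interval 1.04 to 1.17). The share of ENST00000264107 in the gene was thus 40.6% with Dox and 32.2% without Dox.

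The beta chains were led by ITGB1 (ENSG00000150093, chromosome 10, 32900319 to 33005792), the partner of most of the alpha chains present here. It was at 386 TPM with Dox and 302 TPM without Dox, a log2 fold change of 0.36, nearly all on ENST00000302278 (379 TPM with Dox, 297 TPM without Dox, fragment ratio 1.24, interval 1.21 to 1.27). Its processed pseudogene ITGB1P1 was listed at 34.6 TPM with Dox and at 0 without Dox, and how fragments were shared between the gene and the pseudogene was not tested. With the pseudogene added, the log2 fold change was 0.48. ITGB5, a partner of the alpha V chain, was at 82.0 TPM with Dox and 65.6 TPM without Dox. In its full coding transcript ENST00000296181 the difference was smaller, at 42.5 TPM with Dox and 37.3 TPM without Dox (fragment ratio 1.11, interval 1.05 to 1.17), and 2 short processed transcripts, at 7.11 and 6.22 TPM with Dox, were listed at 0 without Dox.

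Chains of leukocyte integrins were present at low level or in short transcripts. ITGAE, whose product pairs with the beta 7 chain on T cells, was at 44.8 TPM with Dox and 39.9 TPM without Dox, but ENST00000572179, a processed transcript of 672 nt, held 39.5 and 36.0 TPM of it. Its coding transcript was at 1.60 TPM with Dox and 1.18 TPM without Dox, and its partner ITGB7 was at 0.11 TPM with Dox and listed at 0 without Dox. ITGB2 was at 10.5 TPM with Dox and 8.24 TPM without Dox. Its coding transcripts of the basic set were at 5.19 TPM with Dox and 0.71 TPM without Dox, of which ENST00000397852 gave 2.92 TPM with Dox and 0 without Dox. ITGAL was at 0.29 TPM with Dox and 2.35 TPM without Dox, and its coding transcript ENST00000356798 was at 0.29 TPM with Dox and 0.54 TPM without Dox (26.9 and 38.6 estimated fragments). The leukocyte markers PTPRC and CD3E were listed at 0 in both libraries, and CD68 was at 11.3 TPM with Dox and 10.7 TPM without Dox.

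The remaining 16 integrin chains had a mean TPM under 1. ITGA3, which codes for a laminin receptor chain, was at 1.40 TPM with Dox and 0.45 TPM without Dox, from 113 and 28.7 estimated fragments (ratio 2.99, interval 1.97 to 4.66). ITGB4, whose product pairs with the alpha 6 chain in hemidesmosomes, was at 1.37 TPM with Dox and 0.29 TPM without Dox, from 101 and 23.8 estimated fragments (ratio 3.23, interval 2.05 to 5.27). Both genes lay above 1 TPM with Dox only. ITGA5, the alpha chain of the classical fibronectin receptor, was at 0.27 TPM with Dox and 0.17 TPM without Dox, and ITGB3 was at 0.27 TPM with Dox and 0.23 TPM without Dox. ITGA7 was at 0.65 TPM with Dox and 1.09 TPM without Dox, and 3 of the 26 integrin chains were listed at 0 in both libraries.

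Because many of the short transcripts are not complete messages, the chains were also compared on the protein-coding transcripts of the GENCODE basic set, a choice made after seeing the data. These held under 50% of the TPM for 10 of the 27 genes. On them 9 of 9 integrin chains were higher with Dox, against 52.3% of the 10555 genes compared in this way, while collagen chains were 3 higher and 5 lower, against 47.7% lower of those genes. ITGAL is not among the 9 because it averaged under 1 TPM there. It was still lower, at 0.29 TPM with Dox and 0.54 TPM without Dox (fragment ratio 0.53, interval 0.31 to 0.89). ITGAV, ITGA2, ITGA10 and ITGB2 passed 1.5-fold upwards, against 4.05% of those genes, and COL26A1 passed it downwards, against 3.08%. ITGB2 alone passed 2-fold upwards, against 1.16% of those genes, and none passed it downwards, against 0.673%. The ITGA10 and ITGB2 values rest in large part on transcripts listed at 0 without Dox. The other ITGA10 transcript of this set, ENST00000369304, was not higher with Dox. That of ITGB2, ENST00000397850, was higher, at 2.26 TPM with Dox and 0.71 TPM without Dox (fragment ratio 3.09, interval 2.06 to 4.78). The median log2 fold change on these transcripts was 0.46 for integrin chains, 0.10 for laminin chains and -0.01 for collagen chains, against 0.01 for all genes.

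**Figure D3:**
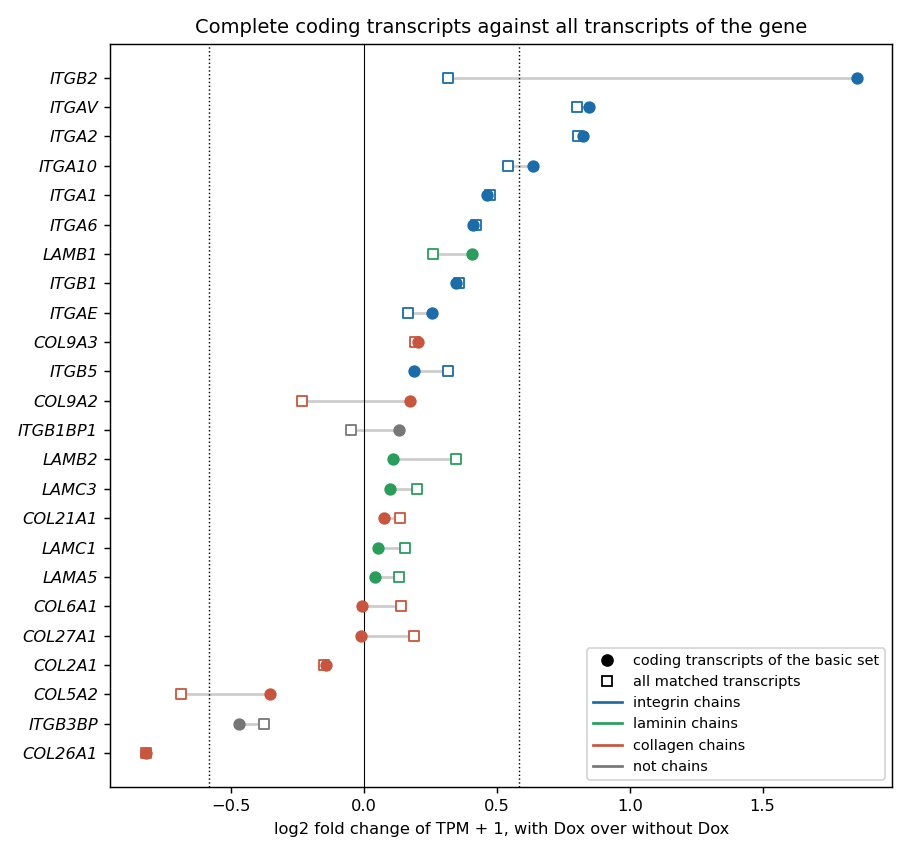
Log2 fold change of TPM + 1, with Dox over without Dox, for the 24 genes that averaged 1 TPM or more on coding transcripts of the basic set. Circles are those transcripts and squares all matched transcripts of the gene; dotted lines mark 1.5-fold. ITGAV, ITGA2 and COL26A1 lie past 1.5-fold on both, while ITGB2 moves from 0.32 to 1.86 and COL9A2 from -0.23 to 0.17.

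Summed over those coding transcripts, alpha chains were at 235 TPM with Dox and 143 TPM without Dox, and beta chains at 432 TPM with Dox and 339 TPM without Dox. The alpha sum was 0.55 of the beta sum with Dox and 0.42 without Dox. ITGAV made up 52.5% of the alpha sum with Dox and 47.7% without Dox, and ITGB1 made up 88.6% of the beta sum in both libraries. TPM is a level of mRNA per length, and says nothing of how many pairs reached the cell surface.

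**Figure D4:**
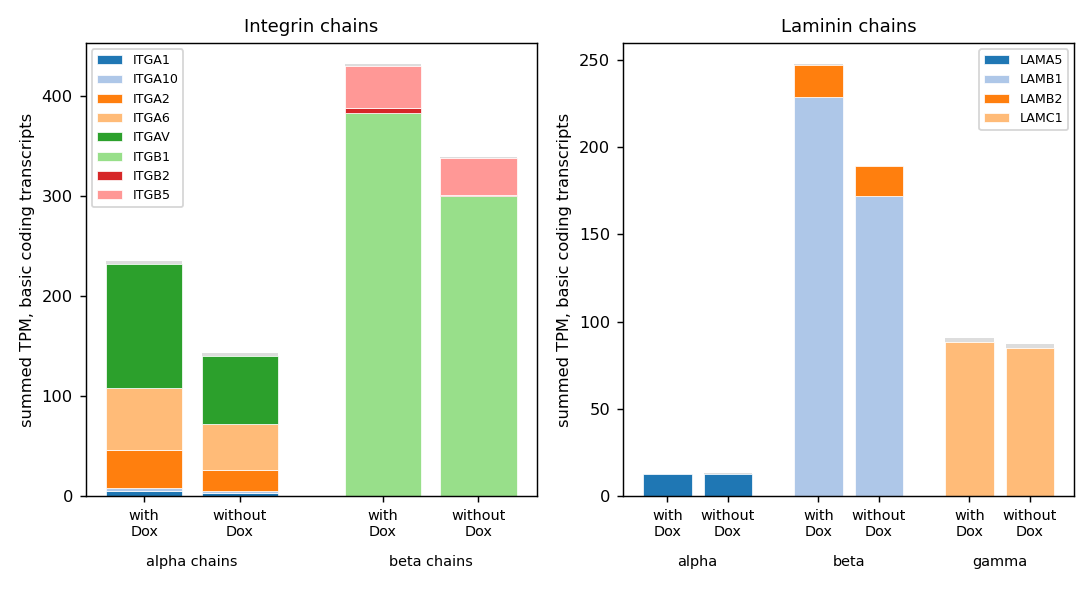
Stacked TPM of coding transcripts of the basic set for integrin alpha and beta chains (left) and laminin alpha, beta and gamma chains (right), with Dox left of without Dox in each pair. Chains that reach 3 TPM are named and the rest is grey. Alpha integrin chains sum to 235 TPM with Dox and 143 TPM without Dox, and laminin beta chains to 247 TPM with Dox and 189 TPM without Dox.

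Among the laminins, LAMB1 (ENSG00000091136, chromosome 7, 107923799 to 108003255), the widely expressed beta 1 chain, was the most abundant in both libraries. It was at 387 TPM with Dox and 323 TPM without Dox, a log2 fold change of 0.26. Its full coding transcript ENST00000222399 was at 221 TPM with Dox and 172 TPM without Dox (fragment ratio 1.25, interval 1.22 to 1.28), while the processed transcript ENST00000474380 was at 105 TPM with Dox and 108 TPM without Dox. LAMB2, the beta 2 chain, was at 44.3 TPM with Dox and 34.6 TPM without Dox. Part of that lay in retained-intron transcripts, and on its coding transcripts it was at 18.5 TPM with Dox and 17.1 TPM without Dox (fragment ratio 1.05, interval 0.98 to 1.13).

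LAMC1, the gamma 1 chain, was at 147 TPM with Dox and 132 TPM without Dox. Its coding transcript of 7889 nt was at 88.2 TPM with Dox and 85.1 TPM without Dox (fragment ratio 1.01, interval 0.98 to 1.04), so most of the gene's difference lay in its short processed transcripts. LAMC3 was at 4.85 TPM with Dox and 4.09 TPM without Dox. LAMA5, the only alpha chain above a mean of 1 TPM, was at 22.8 TPM with Dox and 20.7 TPM without Dox, and its coding transcript of 11426 nt was at 13.1 TPM with Dox and 12.7 TPM without Dox (fragment ratio 1.00, interval 0.95 to 1.06). The beta chains summed to 18.9 times the alpha chains with Dox and 14.4 times without Dox on coding transcripts, and the gamma chains to 6.91 times with Dox and 6.62 times without Dox. LAMA1, LAMA2, LAMA3 and LAMA4 were at 0.05, 0.01, 0.07 and 0.21 TPM with Dox, and at 0.09, 0.04, 0 and 0.42 TPM without Dox. LAMB3 was at 0.33 TPM with Dox and 0.06 TPM without Dox, from 12 and 3 estimated fragments (ratio 3.07, interval 0.83 to 16.9), so a difference was not detectable at this depth.

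Collagens of cartilage and fibril surfaces made up most of the collagen message. COL21A1, a collagen attached to fibrils, was at 130 TPM with Dox and 119 TPM without Dox (fragment ratio 1.03, interval 0.99 to 1.06). COL2A1, the fibrillar collagen of cartilage, was at 127 TPM with Dox and 141 TPM without Dox (fragment ratio 0.88, interval 0.86 to 0.91). COL9A3, a chain of the fibril-associated type IX collagen, was at 119 TPM with Dox and 104 TPM without Dox, with its coding transcript at 57.2 TPM with Dox and 49.6 TPM without Dox (fragment ratio 1.12, interval 1.05 to 1.20). None of these 3 reached 1.5-fold. Another type IX chain, COL9A2, was at 6.41 TPM with Dox and 7.71 TPM without Dox. Its coding transcript was at 5.36 TPM with Dox and 4.64 TPM without Dox (fragment ratio 1.12, interval 0.92 to 1.37), so a difference there was not detectable at this depth. The third type IX chain, COL9A1, was listed at 0 in both libraries.

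COL26A1 (ENSG00000160963, chromosome 7, 101362820 to 101559024) codes for a collagen with an EMI domain. It was at 4.38 TPM with Dox and 8.51 TPM without Dox, a log2 fold change of -0.82 and a fragment ratio of 0.50 (interval 0.42 to 0.60). Both of its coding transcripts were lower: ENST00000313669 was at 2.57 TPM with Dox and 5.19 TPM without Dox, and ENST00000613501 was at 1.81 TPM with Dox and 3.32 TPM without Dox. COL5A2, a minor fibrillar chain, was at 1.06 TPM with Dox and 2.32 TPM without Dox. Its longest coding transcript went the other way, at 0.93 TPM with Dox and 0.61 TPM without Dox, while ENST00000618828 was listed at 0 with Dox and at 0.87 TPM without Dox.

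COL27A1, a fibrillar collagen, was at 27.2 TPM with Dox and 23.8 TPM without Dox, but its coding transcript of 7790 nt was at 14.6 TPM with Dox and 14.7 TPM without Dox. COL18A1, the basement membrane collagen from which endostatin is cut, was at 9.66 TPM with Dox and 13.4 TPM without Dox. Most of that difference lay in a processed transcript of 588 nt, ENST00000459895, at 2.36 TPM with Dox and 5.68 TPM without Dox. ENST00000342220, a coding transcript outside the basic set, was at 6.42 TPM with Dox and 6.68 TPM without Dox. The COL18A1 coding transcripts of the basic set were at only 0.65 TPM with Dox and 0.53 TPM without Dox. COL7A1, the collagen of anchoring fibrils, was at 3.97 TPM with Dox and 4.01 TPM without Dox, on retained-intron transcripts. COL6A1, a chain of beaded filaments, was at 1.38 TPM with Dox and 1.16 TPM without Dox. The summed TPM of all 44 collagen chains was 433 with Dox and 429 without Dox.

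The other 34 collagen chains had a mean TPM under 1, and 12 chains were listed at 0 in both libraries. The chains of the usual basement membrane network were among the low ones. COL4A1 was at 0.07 TPM with Dox and 0.23 TPM without Dox, and COL4A2 was at 0.29 TPM with Dox and 0.68 TPM without Dox. The chains of type I and type III collagen, made in liver mainly by stellate cells, were also low: COL1A1 was at 0.14 TPM with Dox and 0.20 TPM without Dox, and COL3A1 was at 0.02 TPM with Dox and 0.06 TPM without Dox. COL1A2 was at 0.04 TPM with Dox and 0.38 TPM without Dox, from 3 and 28.6 estimated fragments (ratio 0.08, interval 0.02 to 0.26). Of 7 mesenchymal and stellate cell markers 5 were under 1 TPM in both libraries, and the list summed to 44.2 TPM with Dox and 65.9 TPM without Dox. Most of that sum was ACTA2, at 36.7 TPM with Dox and 61.3 TPM without Dox, and PDGFRB was at 7.35 TPM with Dox and 4.11 TPM without Dox. Its defining members DCN and LUM were listed at 0 with Dox and were at 0.08 and 0.14 TPM without Dox, and their part in the collagen values was not tested.

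The 2 compared genes that are not chains were lower with Dox. ITGB3BP, a centromere protein also called CENP-R, was at 33.3 TPM with Dox and 43.6 TPM without Dox (fragment ratio 0.74, interval 0.65 to 0.85). ITGB1BP1, which binds the tail of the beta 1 chain, was at 94.6 TPM with Dox and 97.8 TPM without Dox, and on its coding transcripts it was at 40.6 TPM with Dox and 37.0 TPM without Dox.

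Genes that act with these chains were taken from 5 lists. Of 21 compared genes of the integrin adhesome, the proteins that link integrin tails to actin, 19 were higher with Dox, against 53.0% of all genes compared, and 3 passed 1.5-fold upwards, against 5.32%, with a median log2 fold change of 0.25, against 0.02. TNS1, a tensin, was at 3.39 TPM with Dox and 1.33 TPM without Dox, of which 0.75 and 0.16 TPM lay on coding transcripts of the basic set. BCAR1, the adaptor p130Cas, was at 23.1 TPM with Dox and 13.6 TPM without Dox. PARVA, which binds ILK, was at 20.7 TPM with Dox and 12.9 TPM without Dox, and on its coding transcripts its log2 fold change was 0.41, short of 1.5-fold. VCL, which codes for vinculin, was at 48.3 TPM with Dox and 33.6 TPM without Dox. The 2 members lower with Dox were ACTN4, an alpha-actinin, at 30.2 TPM with Dox and 43.0 TPM without Dox, and TLN2, a talin, at 8.18 TPM with Dox and 10.7 TPM without Dox. On its coding transcripts TLN2 went the other way, at 5.76 TPM with Dox and 4.98 TPM without Dox. FERMT1, PTK2 and PTK2B were higher over all transcripts but lower on coding transcripts of the basic set. Their log2 fold changes there were -0.20, -0.04 and -0.04, and PTK2B lay under 1 TPM there in both libraries.

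Of 17 compared genes of collagen biosynthesis, 8 were higher and 9 lower with Dox, against 53.0% higher and 47.0% lower of all genes compared, with a median of -0.01. PPIB, a prolyl isomerase of the endoplasmic reticulum, was at 701 TPM with Dox and 1157 TPM without Dox, and COLGALT1, a collagen galactosyltransferase, was at 30.3 TPM with Dox and 49.6 TPM without Dox. These 2 passed 1.5-fold downwards, against 3.90% of all genes, and none passed it upwards. P3H4 was at 21.1 TPM with Dox and 28.8 TPM without Dox, and PLOD3, a lysyl hydroxylase, was at 98.6 TPM with Dox and 77.2 TPM without Dox.

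Of 9 compared glycoproteins of basement membrane and matrix, 6 were higher with Dox, against 53.0% of all genes compared, and 3 passed 1.5-fold upwards, against 5.32%, with a median of 0.05. THBS1, which codes for thrombospondin, was at 3.69 TPM with Dox and 1.69 TPM without Dox. SPP1, which codes for the RGD protein osteopontin, was at 1.99 TPM with Dox and 0.91 TPM without Dox, and HSPG2, which codes for perlecan, was at 11.3 TPM with Dox and 7.002 TPM without Dox. SPP1 was above 1 TPM only with Dox, and on coding transcripts of the basic set THBS1 (0.42) and HSPG2 (0.35) had log2 fold changes short of 1.5-fold. VTN, which codes for vitronectin, the ligand of alpha V integrins, was at 39.0 TPM with Dox and 52.4 TPM without Dox. NID1, which links laminin to collagen networks, was at 107 TPM with Dox and 103 TPM without Dox.

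Matrix receptors other than integrins had a median of -0.04, with 5 of 11 higher, against 53.0% of all genes compared. CD44, the hyaluronan receptor, was at 5.85 TPM with Dox and 3.42 TPM without Dox (3.79 and 3.19 TPM on its coding transcripts), and the syndecan gene SDC1 was at 21.4 TPM with Dox and 32.1 TPM without Dox. Matrix proteases and their inhibitors had a median of 0.20, against 0.02 for all genes, with 9 of 13 higher, against 53.0%. ADAM9, a membrane protease, was at 114 TPM with Dox and 69.3 TPM without Dox, TIMP1 was at 72.2 TPM with Dox and 44.8 TPM without Dox, and MMP3 was at 1.12 TPM with Dox and 2.21 TPM without Dox. On its coding transcripts MMP3 went the other way, at 1.12 TPM with Dox and 0.56 TPM without Dox.

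Smaug-type proteins bind RNA hairpins whose loop begins with CNGG, so the main coding transcript of each gene was searched for CNGG followed by 0 to 3 bases and closed by a stem of 5 paired bases (A with T, G with C). Such hairpins were found in 14 of 26 members with a coding transcript, 21 in all, of which 16 lay in coding sequence and 5 in the 3′ UTR. A pair of the LAMC1 sites, at bases 500 to 515 and 501 to 514, share 1 stretch and were counted as 2. Among all 10979 genes searched 29.8% held at least 1, but the members' transcripts are longer, with a median of 5241 nt against 2755 nt. Per kilobase there were 0.15 in the members and 0.12 in all genes. The hairpins of ITGA2, COL26A1 and LAMB1 are shown as examples from genes that were higher and lower with Dox, with the loop in capitals and DNA letters as in the reference transcript.
ITGA2, base 1423: ttctgCAGGAcagaa
ITGA2, base 2654: caacaCTGGAATtgttg
ITGA2, base 3824: aactgCAGGTcagtt
COL26A1, base 1126: ggaccCCGGggtcc
COL26A1, base 2207: ccccaCTGGCtgggg
LAMB1, base 599: tccaaCTGGATttgga

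The first 2 ITGA2 hairpins, the first of COL26A1 and that of LAMB1 lie in coding sequence, and the others in the 3′ UTR. ITGAV, ITGB1, ITGA6, ITGA1, COL21A1 and COL2A1 held none in their main coding transcript. Members with and without such a hairpin were found both higher and lower with Dox. With hairpins, ITGA2 (3) had a log2 fold change of 0.81 and COL26A1 (2) had -0.82. With 0, ITGAV had 0.80 and COL2A1 had -0.15. A relation of hairpins to these differences was not tested. Binding was not measured here.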

How the data were processed

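Polyadenylated RNA of 2 HepG2 cultures was sequenced. The authors deposited TPM per Ensembl transcript, and each column summed to 1000000. The submitters' processing notes name Trimmomatic, Salmon and GRCh38.p13; versions and annotation: not given in the sources used here. Salmon shares out fragments that fit several transcripts, so TPM of short or near-identical transcripts is less certain.

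Of 184844 transcripts, 161798 matched GENCODE release 29, and their TPM was summed per gene. Differences are log2 of (TPM + 1) with Dox over (TPM + 1) without Dox, which understates low genes, where the mean TPM reached 1. With 1 library per group nothing was tested, and a fold of 1.5 was counted. All compared members are named, and up to 4 genes per partner list by size of change (some values are not reported here); other genes were chosen after their values were seen. The members and lists were chosen with earlier results of these data known.

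For depth, 1 step was fitted on single-transcript genes of 600 nt or more. For values under 5.5 fragments, TPM times length less 300 nt was set against whole multiples of that step. It lay within 0.1 of a whole multiple for 80.4% (with Dox) and 77.1% (without Dox) of them. Fragments were then estimated for matched transcripts of 600 nt or more, and depth is their sum. Fragment ratios have exact 95% binomial (Clopper-Pearson) intervals. The gene sums and step fit were tested on simulated data. Python 3.11.15, pandas 2.3.3 and scipy 1.17.1 were used.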

Additional observations from a re-analysis of the deposited data

How the results depend on the processing

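No paired analysis was possible because each group has 1 library. No member past 1.5-fold changed direction under the alternatives in which it was compared. ITGAL was compared in 8 of the 11 settings and COL5A2 in 10. ITGAV and ITGA2 stayed past 1.5-fold under all 11 settings, with log2 fold changes of 0.77 to 0.85 for ITGAV and 0.71 to 0.83 for ITGA2. COL26A1 ranged from -0.997 to -0.526 and missed 1.5-fold with a pseudocount of 5 TPM, where the count lower by 1.5-fold was 0. That count was 1 at a minimum mean TPM of 5 and 1 on basic coding transcripts. The count higher by 1.5-fold was 4 without the filter on low values (ITGA3 and ITGB4 added), 4 in estimated fragments and 4 on basic coding transcripts (ITGA10 and ITGB2 added in both). Estimated fragments leave out transcripts under 600 nt. For ITGB2 those of 571 and 573 nt held 3.42 and 1.70 TPM with Dox, and 3.06 and 4.02 TPM without Dox. Without the filter the median over all 86 genes was 0.00, because many lie near 0. The summed collagen ratio, 1.01 in TPM, was 0.955 in estimated fragments and 0.992 on basic coding transcripts. Scaling by the median ratio kept the sign of all 27 genes. Signs were kept for 26 of 27 genes without mitochondrial transcripts and for 25 of 27 in estimated fragments. They were kept for 21 of 25 on protein-coding transcripts and for 20 of 24 on basic coding transcripts. Without transcripts listed at 0 in 1 library and at 1 TPM or more in the other, they were kept for 24 of 27. Leaving out transcripts listed at 0 in 1 library and at 1 TPM or more in the other took ITGA10 to -0.05 and ITGB2 to -0.11, and COL7A1 to -0.60. Other causes of these shifts were not tested. Counts over low genes are limited by depth: 1 fragment on a transcript of 2000 nt is 0.0316 TPM with Dox and 0.0401 TPM without Dox. The basic coding transcripts were added as a setting after seeing the data.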
